A study of Danio rerio with 48 samples.

Results

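The genes that make, package, clear and sense the inhibitory transmitters GABA (gamma-aminobutyric acid) and glycine were measured in the heads of zebrafish larvae exposed to perfluorohexane-1-sulfonate (PFHxS), one of the per- and polyfluoroalkyl substances. The members were chosen by name, as every gene of the count table whose symbol begins with gabr, gabbr, glra or glrb, with gad1a, gad1b, gad2, slc32a1, slc6a1a, slc6a1b, slc6a5, slc6a9, gphna and gphnb added. That gave 40 of 25445 genes. They comprised 3 genes of GABA synthesis, 1 vesicular transporter, 4 transporters of the plasma membrane, 2 scaffold genes, 21 subunits of the GABA-A receptor family, 3 of the GABA-B receptor and 6 of the glycine receptor. The rule uses names and no value of expression, but it was set with earlier results of these data known. A further 2 genes listed under upper-case symbols beginning with GABR fell outside it.

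Larvae came from a mixed wild-type stock, and the labels name no genetic change. From 0 days post-fertilization (dpf) each embryo was kept in its own well in medium renewed daily, with 0.4% dimethyl sulfoxide (DMSO) as the solvent in all groups, the exposed ones included. The 8 groups were heads at 5 dpf and heads at 4 dpf of larvae given DMSO alone or the potassium salt of PFHxS at 7.87, 14 or 25.1 µM. Each group had 6 libraries of polyA RNA, each from 15 pooled heads cut off ahead of the swim bladder, so each library mixes all tissues of the head. The series title sets the libraries beside a larval behaviour test in alternating light and dark. Whether the pools of a group were of different clutches is not stated, and the p-values below rest on the spread from pool to pool, part of which may be technical.

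GABA and glycine are the main fast inhibitory transmitters of the vertebrate central nervous system. Glutamate decarboxylases make GABA, a single vesicular carrier loads both transmitters into synaptic vesicles, and sodium-coupled carriers of the plasma membrane end the signal and recycle the transmitter. GABA-A and glycine receptors are chloride channels built of several subunits held at synapses by gephyrin, GABA-B receptors act through G proteins, and glycine prevails in the hindbrain and spinal cord circuits that shape the swimming rhythm.

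A library held 22.9 M counts at the median, 16.6 M at the least and 39.2 M at the most, where 1 M stands for 1000000, and the biological coefficient of variation was 0.361. All 40 members passed the filter on low counts, with 20723 genes. Mean counts ran from 5.32 for gabrr2b to 7319 for slc6a1b, with a median of 324 over the members. The count of gabrr2b was above 0 in 38 of 48 libraries and that of gad1a in 47; where it was 0, the 3 counts that a count of 0 allows correspond to 0.0897 to 0.273 counts per 1000000 (CPM, with TMM scaling, which trims the extreme gene ratios between libraries), for counting error only. The labelled tissue carried its markers: the 18 pan-neuronal genes summed to 2419 to 3917 CPM in DMSO heads at 5 dpf and to 3275 to 5019 CPM at 4 dpf, and the 14 retina genes to 7320 to 10340 CPM at 5 dpf and 15020 to 24300 CPM at 4 dpf. Markers of other organs were present as well, since the 12 liver genes summed to 4742 to 9863 CPM in DMSO heads at 5 dpf and 268.2 to 2989 CPM at 4 dpf. No marker of these lists was at 0 in all libraries of a group. The libraries were sequenced in 3 pools of 16 that the labels do not name; the last 16 columns of the count table are taken below as 1 block and the first 32 as another, and the groups fill them unevenly. All 6 libraries of 7.87 µM at 4 dpf stood in the first 32 columns, against 2 of 6 of DMSO at 4 dpf.

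Levels in CPM depend on transcript length, and no lengths were used here, so each gene is compared with itself over the 8 groups and not with other genes. In DMSO heads gad1b, a GABA-synthesizing decarboxylase, had 119, 223 and 266 CPM at 5 dpf (lowest, median and highest of 6 libraries), against 126, 192 and 226 CPM at 4 dpf. Its relative gad2 had 139.5, 210.0 and 300.1 CPM at 5 dpf and 119, 172 and 229.6 CPM at 4 dpf. For both genes the ages overlapped over most of their range. The GABA reuptake carrier slc6a1b had 178, 304 and 390.1 CPM at 5 dpf and 213, 356 and 522 CPM at 4 dpf, and its paralogue slc6a1a had 37.6, 60.0 and 94.1 CPM at 5 dpf and 30.4, 60.8 and 95.5 CPM at 4 dpf. The vesicular carrier slc32a1 had 83.9, 132 and 163 CPM at 5 dpf and 101, 173 and 216 CPM at 4 dpf. These too overlapped between the ages.

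Among receptor subunits, gabbr2, gabbr1a, glrba and glrbb overlapped between the ages as well, whereas gabbr1b and gabrr3b, given below, did not. In DMSO heads the GABA-B subunit gabbr2, which couples the receptor to G proteins, had 3.57, 5.41 and 7.71 CPM at 5 dpf and 2.80, 3.88 and 5.82 CPM at 4 dpf. Its lowest 5 dpf library lay within the range of 4 dpf. Another GABA-B subunit, gabbr1a, which carries the GABA binding site, had 4.76, 6.47 and 7.71 CPM at 5 dpf and 4.55, 5.85 and 10.3 CPM at 4 dpf. Of the glycine receptor beta subunits, which bind gephyrin, glrba had 7.17, 14.5 and 15.7 CPM at 5 dpf and 5.92, 12.07 and 17.1 CPM at 4 dpf, and glrbb had 26.8, 41.7 and 49.6 CPM at 5 dpf and 21.1, 36.6 and 46.6 CPM at 4 dpf. In gabbr1a, glrba and glrbb the medians at 5 dpf lay inside the range of 4 dpf.

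**Figure D1:**
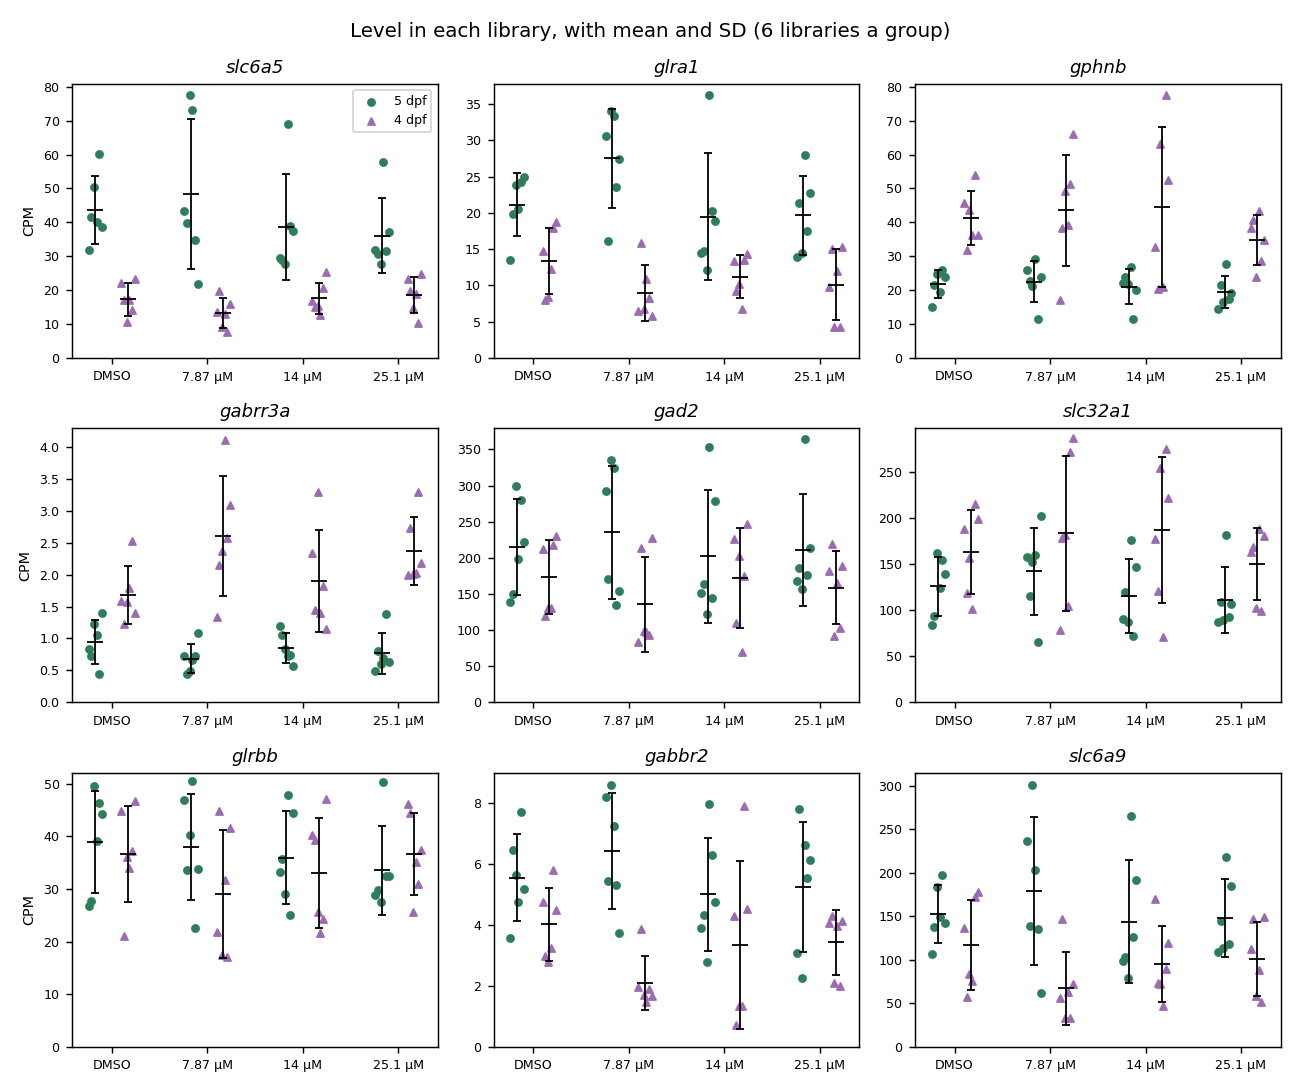
CPM (TMM-scaled, linear axis) of 9 members against PFHxS concentration in µM, with 1 point per library, 6 libraries per group, 5 dpf as circles and 4 dpf as triangles, and the mean ± SD of each group. The slc6a5 circles lie above the triangles at every concentration, gphnb and gabrr3a circles lie mostly below them, and the other genes overlap more.

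The first comparison was between ages in DMSO, where 10 of 40 members passed the threshold (edgeR's quasi-likelihood F test, Benjamini-Hochberg adjusted p under 0.05). Of these, 3 were higher at 5 dpf and 7 lower. Over all genes tested 41.9% passed, 21.7% higher and 20.2% lower. The median log2 fold change of the members was 0.17 and that of all genes 0.20, and 28 of 40 members were positive, against 58.8% of all genes. The last 16 columns held 1 of the DMSO libraries at 5 dpf and 4 at 4 dpf. With a term for the column block the members' median was 0.35, against 0.21 for all genes. The median difference in mean log2 CPM was 0.12 within the first 32 columns and 0.012 within the last 16. On the authors' quantile-normalized values the median of all genes was 0.013 in place of 0.20, and no called member changed sign there. The TMM factors of the ages did not overlap (1.1 to 1.925 at 5 dpf, 0.566 to 1.098 at 4 dpf). Each fold change between ages, here and below, is thus relative to the scaling, and no alternative left the libraries unscaled. Heads are mixtures of cells, so fewer cells of a type and less RNA per cell cannot be told apart here or in any comparison below.

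The glycine carrier of inhibitory neurons was the clearest of the 3 that rose. In DMSO heads slc6a5 (chr7:17229282-17252275, plus strand, GRCz11), which returns glycine to glycinergic nerve endings, had 31.7, 40.8 and 60.1 CPM at 5 dpf, against 10.5, 16.98 and 23.2 CPM at 4 dpf. Every 5 dpf library lay above every 4 dpf library (log2 fold change 1.34 ± 0.26 (SE), adjusted p = 7.5e-05). The decarboxylase gene gad1a had 0.525, 0.874 and 1.61 CPM at 5 dpf and 0.237, 0.379 and 0.759 CPM at 4 dpf, with 3 of 6 libraries at 5 dpf above the range of 4 dpf (log2 fold change 1.25 ± 0.50 (SE), adjusted p = 0.0407). The remaining gene, gabrp, encodes the pi subunit, known in mammals mostly outside the brain. It had 2.13, 3.16 and 5.17 CPM at 5 dpf and 0.864, 1.16 and 2.18 CPM at 4 dpf, with 5 of 6 libraries at 5 dpf above the range of 4 dpf (log2 fold change 1.23 ± 0.42 (SE), adjusted p = 0.0176).

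Both gephyrin genes fell with age. Gephyrin anchors glycine receptors and many GABA-A receptors under the synaptic membrane and also serves in molybdenum cofactor synthesis in other tissues. In DMSO heads gphnb (chr20:50852356-50999405, plus strand) had 15.0, 22.7 and 26.0 CPM at 5 dpf, against 31.97, 40.0 and 54.1 CPM at 4 dpf. The ages did not overlap (log2 fold change -0.92 ± 0.26 (SE), adjusted p = 0.00417). Its paralogue gphna (chr17:33999630-34185514, plus strand) had 19.8, 33.3 and 42.5 CPM at 5 dpf and 34.6, 49.9 and 62.7 CPM at 4 dpf, with 3 of 6 libraries at 5 dpf below the range of 4 dpf (log2 fold change -0.59 ± 0.23 (SE), adjusted p = 0.0405). The whole span of gphna in the annotation overlaps the gene esrrb on the other strand, and strand handling is not given in the sources used here, so its counts are uncertain.

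Of the 5 rho subunits, GABA-gated channel subunits best known from the retina, 3 fell in DMSO heads. The level of gabrr3b (chr24:25258904-25284836, plus strand) was 1.57, 2.68 and 3.82 CPM at 5 dpf, against 4.22, 5.13 and 6.30 CPM at 4 dpf, with no overlap (log2 fold change -0.93 ± 0.26 (SE), adjusted p = 0.00373). For gabrr3a (chr10:35367722-35410519, minus strand) it was 0.442, 0.950 and 1.39 CPM at 5 dpf and 1.22, 1.58 and 2.53 CPM at 4 dpf, with 5 of 6 libraries below the range of 4 dpf (log2 fold change -0.83 ± 0.30 (SE), adjusted p = 0.0207). The whole span of gabrr3a lies within slc37a4b on the same strand, which had a mean count of 342, so reads of the 2 genes may not be told apart. The remaining one, gabrr1, had 12.6, 18.7 and 24.3 CPM at 5 dpf and 21.3, 25.9 and 34.8 CPM at 4 dpf (log2 fold change -0.48 ± 0.17 (SE), adjusted p = 0.021). The other rho genes, gabrr2a (-0.22 ± 0.25 SE) and gabrr2b (0.68 ± 0.79 SE), did not pass. Retina markers moved with these genes, since 9 of 14 fell and 2 rose in the same comparison (median log2 fold change -0.76), with crx at -1.61 and cabp5a at 0.98; their part in the result was not tested.

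A glycine receptor alpha subunit and a GABA-A alpha subunit also fell. In DMSO heads glra4b (chr5:22515347-22544152, minus strand) had 0.413, 1.34 and 1.86 CPM at 5 dpf, against 1.16, 2.47 and 4.01 CPM at 4 dpf, an overlap in which 2 of 6 libraries at 5 dpf were below the range of 4 dpf (log2 fold change -1.11 ± 0.36 (SE), adjusted p = 0.012). The level of gabra6a, an alpha subunit known in mammals from cerebellar granule cells, was 15.7, 17.6 and 20.6 CPM at 5 dpf and 17.8, 25.5 and 30.0 CPM at 4 dpf (log2 fold change -0.47 ± 0.15 (SE), adjusted p = 0.00959). The glycine receptor alpha subunit glra1 missed the threshold: it had 13.4, 22.1 and 25.0 CPM at 5 dpf and 8.03, 13.5 and 18.7 CPM at 4 dpf, with 5 of 6 libraries above the range of 4 dpf (log2 fold change 0.66 ± 0.29 (SE), adjusted p = 0.0567).

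The other 29 members did not pass in DMSO heads. Every 5 dpf library of gabbr1b lay above every 4 dpf library, yet its adjusted p was 0.112 (log2 fold change 0.58 ± 0.30, SE). Counted without reference to the test, the ages did not overlap for 2 members that were higher at 5 dpf (slc6a5 and gabbr1b) and 2 that were lower (gphnb and gabrr3b), against 14% of all genes higher and 14.5% lower. Log2 fold changes with their SE were 0.31 ± 0.31 for gad2, 0.17 ± 0.25 for gad1b and -0.37 ± 0.29 for slc32a1. Among the carriers they were 0.38 ± 0.35 for slc6a9, the glial glycine carrier, 0.07 ± 0.34 for slc6a1a and -0.28 ± 0.28 for slc6a1b. Among the subunits they were -0.01 ± 0.31 for gabbr1a, 0.46 ± 0.35 for gabbr2, 0.17 ± 0.30 for glrba and 0.09 ± 0.23 for glrbb.

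The calls of slc6a5, gphnb, gabrr3b and glra4b in DMSO heads held under all alternatives run, including each library left out. The others depended on single libraries or settings. The gabrp call was lost without 5 dpf library F (adjusted p = 0.0513). The gabrr1 call was lost without either of 5 dpf library C and 4 dpf library F (adjusted p of 0.0753 to 0.0768). The gabrr3a call was lost without either of 5 dpf library H and 4 dpf library H (adjusted p of 0.0652 to 0.0779). The gad1a call was lost without any 1 of 5 dpf libraries F, H and I and 4 dpf libraries B, E, F, G and I (adjusted p of 0.0505 to 0.0999). The gphna call was lost without any 1 of 5 dpf libraries C, E and G and 4 dpf libraries B, F, H and I (adjusted p of 0.0536 to 0.112). For gabra6a no single library decided the call, but limma on the authors' quantile-normalized values did not pass it, nor gad1a, gabrp, gabrr1 and gphna. All the alternatives scale the libraries to each other, so a call that held under them was not tested against the scaling itself.

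**Figure D2:**
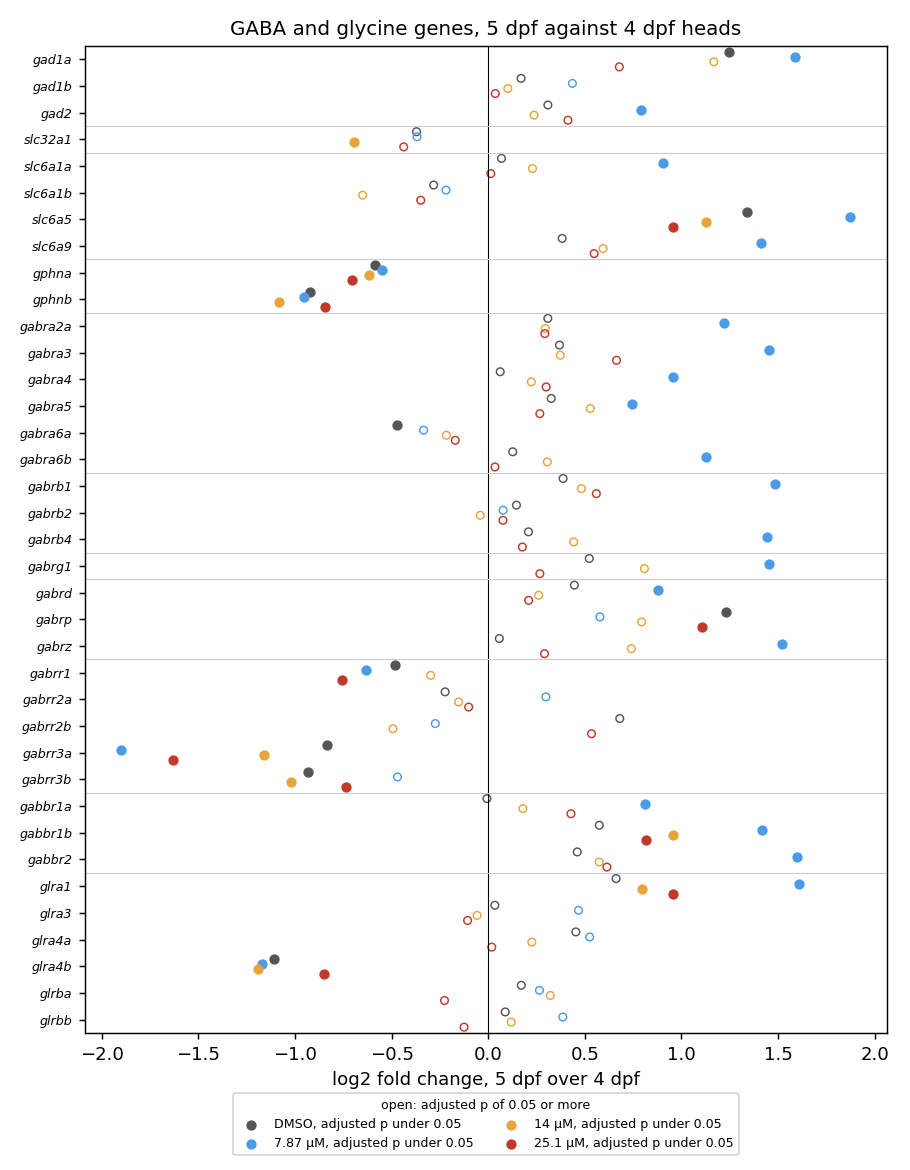
Log2 fold change of 5 dpf over 4 dpf for the members reported by name, in DMSO and at 7.87, 14 and 25.1 µM, with filled symbols for an adjusted p under 0.05. The symbols of slc6a5 are filled to the right of 0 at every concentration, those of gphna, gphnb, gabrr3a and glra4b to the left, and many of the receptor subunits are filled at 7.87 µM alone.

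The same comparison was made at each PFHxS concentration, and the 4 comparisons between ages share no library. At 7.87 µM 26 of 40 members passed, 21 higher and 5 lower at 5 dpf, against 50.5% of all genes (26.9% higher and 23.7% lower). At 14 µM 9 passed, 3 higher and 6 lower, against 40.9% (22% and 19%). At 25.1 µM 10 passed, 4 higher and 6 lower, against 47% (25.8% and 21.2%). On the quantile-normalized values the calls split into 2 higher and 4 lower in DMSO, 19 and 5 at 7.87 µM, 4 and 4 at 14 µM and 5 and 5 at 25.1 µM. The median log2 fold change of the members was 0.77, 0.23 and 0.19 for 7.87, 14 and 25.1 µM, and that of all genes 0.21, 0.22 and 0.26 in the same order. On the quantile-normalized values the members' median at 25.1 µM was 0.0072 with a pseudocount of 0.1 and 0.0014 with one of 1. With 1 library left out it was 0.65 to 0.92 at 7.87 µM, 0.017 (without 5 dpf library G) to 0.33 (without 4 dpf library H) at 14 µM and 0.084 (without 5 dpf library G) to 0.29 (without 5 dpf library F) at 25.1 µM. Members with a positive fold change numbered 30, 27 and 26 of 40, against 58%, 59.9% and 60.3% of all genes.

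In all 4 comparisons the same 5 members were called: slc6a5 rose, and gphna, gphnb, gabrr3a and glra4b fell. The gphna calls were weak, passing in 11, 8, 13 and 19 of 21 alternatives in DMSO and at 7.87, 14 and 25.1 µM. In the same order glra4b passed in 21, 20, 20 and 9 of 21. The share of all genes called in all 4 was not counted, so the number 5 marks no trait of the members. The carrier slc6a5 had 21.9, 41.6 and 77.5 CPM at 5 dpf and 7.67, 13.3 and 19.7 CPM at 4 dpf in heads given 7.87 µM. At 14 µM it had 27.6, 33.5 and 69.0 CPM at 5 dpf and 12.8, 16.0 and 25.5 CPM at 4 dpf. At 25.1 µM it had 27.7, 31.7 and 57.7 CPM at 5 dpf and 10.4, 19.2 and 24.7 CPM at 4 dpf. No 5 dpf library of any concentration reached down to a 4 dpf library of the same concentration. The log2 fold changes were 1.87 ± 0.27 (adjusted p = 1.89e-07) at 7.87 µM, 1.13 ± 0.26 (adjusted p = 0.000632) at 14 µM and 0.96 ± 0.26 (adjusted p = 0.00262) at 25.1 µM, with SE.

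The gephyrin gene gphnb had 11.5, 23.3 and 29.3 CPM at 5 dpf, against 17.1, 44.2 and 65.9 CPM at 4 dpf, at 7.87 µM. At 14 µM it had 11.4, 21.9 and 26.9 CPM at 5 dpf and 20.2, 42.6 and 77.6 CPM at 4 dpf, and at 25.1 µM 14.3, 18.3 and 27.7 CPM at 5 dpf and 23.9, 36.5 and 43.2 CPM at 4 dpf. The ages overlapped at each exposed concentration, and the log2 fold changes were -0.95 ± 0.26 (adjusted p = 0.0025), -1.08 ± 0.26 (adjusted p = 0.00103) and -0.84 ± 0.26 (adjusted p = 0.00785) in that order. For gphna they were -0.55 ± 0.23 (adjusted p = 0.0475), -0.62 ± 0.24 (adjusted p = 0.0315) and -0.70 ± 0.24 (adjusted p = 0.0128). The medians of gphna were 33.4, 32.1 and 24.6 CPM at 5 dpf, against 47.5, 45.9 and 42.0 CPM at 4 dpf.

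The rho subunit gabrr3a had 0.437, 0.690 and 1.08 CPM at 5 dpf and 1.33, 2.47 and 4.11 CPM at 4 dpf at 7.87 µM (log2 fold change -1.90 ± 0.30 (SE), adjusted p = 1.28e-06). At 14 µM it had 0.565, 0.787 and 1.197 CPM at 5 dpf and 1.15, 1.63 and 3.30 CPM at 4 dpf (log2 fold change -1.16 ± 0.30 (SE), adjusted p = 0.00187). At 25.1 µM it had 0.492, 0.663 and 1.39 CPM at 5 dpf and 2.00, 2.10 and 3.29 CPM at 4 dpf (log2 fold change -1.63 ± 0.30 (SE), adjusted p = 2.22e-05). The ages did not overlap at 7.87 and 25.1 µM, and 5 of 6 libraries were below the 4 dpf range at 14 µM. The related gabrr3b fell at 14 µM (log2 fold change -1.02 ± 0.26 (SE), adjusted p = 0.00178) and at 25.1 µM (log2 fold change -0.74 ± 0.26 (SE), adjusted p = 0.0194), and gabrr1 at 7.87 µM (log2 fold change -0.63 ± 0.17 (SE), adjusted p = 0.00224) and at 25.1 µM (log2 fold change -0.76 ± 0.17 (SE), adjusted p = 0.000395). At 25.1 µM gabrr1 had 13.4, 16.0 and 19.9 CPM at 5 dpf and 24.9, 28.0 and 29.6 CPM at 4 dpf, with no overlap. The retina markers again fell more often than they rose, 10 of 14 against 2 at 7.87 µM, 7 against 2 at 14 µM and 9 against 2 at 25.1 µM. They summed to 3559 to 10220 CPM at 5 dpf and 7845 to 34140 CPM at 4 dpf at 7.87 µM, and their part was not tested.

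Glycine receptor subunits moved in both directions. The alpha subunit glra1 (chr14:25816874-25911568, plus strand), defects of which cause exaggerated startle in humans, had 16.1, 29.0 and 34.1 CPM at 5 dpf and 5.72, 7.47 and 15.9 CPM at 4 dpf at 7.87 µM (log2 fold change 1.61 ± 0.29 (SE), adjusted p = 1.33e-05). It had 12.12, 16.8 and 36.2 CPM at 5 dpf and 6.78, 11.7 and 14.3 CPM at 4 dpf at 14 µM (log2 fold change 0.79 ± 0.29 (SE), adjusted p = 0.024), and 13.9, 19.4 and 28.0 CPM at 5 dpf and 4.26, 10.9 and 15.3 CPM at 4 dpf at 25.1 µM (log2 fold change 0.96 ± 0.29 (SE), adjusted p = 0.00596). The ages did not overlap at 7.87 µM and overlapped by part of their range at the other concentrations. The alpha subunit glra4b had log2 fold changes of -1.17 ± 0.36 (adjusted p = 0.0065), -1.19 ± 0.37 (adjusted p = 0.00811) and -0.85 ± 0.36 (adjusted p = 0.04997) at 7.87, 14 and 25.1 µM. The other 4 subunits, glra3, glra4a, glrba and glrbb, passed in none of the 4 comparisons. Their log2 fold changes lay between -0.23 (glrba at 25.1 µM) and 0.53 (glra4a at 7.87 µM).

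At 7.87 µM most GABA receptor subunits were higher at 5 dpf. The calls took in 6 of 7 alpha, 2 of 4 beta, the gamma subunit gabrg1 and all 3 GABA-B subunits, with gabrd, the delta subunit of extrasynaptic receptors, and gabrz. The GABA-B subunit gabbr2 had 3.73, 6.37 and 8.61 CPM at 5 dpf and 1.48, 1.80 and 3.88 CPM at 4 dpf (log2 fold change 1.60 ± 0.36 (SE), adjusted p = 0.000334). In 5 of 6 libraries at 5 dpf it was above the range of 4 dpf. The gamma subunit gabrg1, with no overlap, had 2.20, 3.26 and 6.40 CPM at 5 dpf and 0.606, 1.32 and 2.08 CPM at 4 dpf (log2 fold change 1.45 ± 0.35 (SE), adjusted p = 0.000667). The ages did not overlap for 3 members higher (slc6a5, glra1 and gabrg1) and 1 lower (gabrr3a) at 7.87 µM, against 4.88% and 8.51% of all genes. At 14 µM it was 1 higher (slc6a5) and none lower, against 6.09% and 7.51%, and at 25.1 µM 1 higher (slc6a5) and 2 lower (gabrr1 and gabrr3a), against 13.4% and 15.8%.

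The remaining alpha and beta subunits called at 7.87 µM had log2 fold changes of 1.22 ± 0.43 (gabra2a), 1.45 ± 0.50 (gabra3), 0.95 ± 0.35 (gabra4), 0.74 ± 0.25 (gabra5), 1.13 ± 0.39 (gabra6b), 1.48 ± 0.41 (gabrb1) and 1.44 ± 0.41 (gabrb4). Those of the others were 0.88 ± 0.27 for gabrd, 1.52 ± 0.48 for gabrz, 0.81 ± 0.32 for gabbr1a and 1.42 ± 0.30 for gabbr1b, with SE, and their adjusted p ran from 0.000146 to 0.0295. On the transmitter side gad2 had 134, 232 and 335 CPM at 5 dpf and 83.4, 98.1 and 228 CPM at 4 dpf (log2 fold change 0.79 ± 0.31 (SE), adjusted p = 0.0287). The glial glycine carrier slc6a9 had 61.6, 171 and 301 CPM at 5 dpf and 32.8, 59.8 and 146 CPM at 4 dpf (log2 fold change 1.41 ± 0.35 (SE), adjusted p = 0.000934). Both overlapped, with 3 of 6 libraries at 5 dpf above the range of 4 dpf. The rises of gad1a (log2 fold change 1.59 ± 0.50 (SE), adjusted p = 0.00756) and of slc6a1a (log2 fold change 0.90 ± 0.35 (SE), adjusted p = 0.0278) also passed. Not called at 7.87 µM were gad1b (0.44 ± 0.25), slc32a1 (-0.37 ± 0.29), slc6a1b (-0.22 ± 0.28), glrba (0.27 ± 0.30) and glrbb (0.39 ± 0.23).

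For 17 members the call at 7.87 µM was the only one of the 4, with log2 fold changes of 0.74 to 1.60. How many of all genes were called at 7.87 µM alone was not counted, so the number 17 marks no trait of the members. In DMSO the same 17 had log2 fold changes of -0.0066 to 0.52, positive in 16. The difference between the 2 age comparisons was tested as an interaction: it was 0.42 to 1.46 on the log2 scale, with an unadjusted p under 0.05 in 6 of 17. Over all genes 3.39% were higher and 3.17% lower at that level. The 17 were picked by calls in the same libraries, which favours positive differences and small p, so this range and count are no support. The smallest adjusted p among them was 0.724. A difference between 7.87 µM and DMSO in the change with age was therefore not shown for these genes. The libraries of 7.87 µM at 4 dpf all stood in the first 32 columns. Within those columns, 3 libraries at 5 dpf against 6 at 4 dpf, the median of the 40 members was 0.74, and the last 16 columns give no value.

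At 14 and 25.1 µM the calls outside the 5 shared members were few. The GABA-B subunit gabbr1b, of the GABA-binding kind, rose at 14 µM (log2 fold change 0.96 ± 0.30 (SE), adjusted p = 0.0094) and at 25.1 µM (log2 fold change 0.82 ± 0.30 (SE), adjusted p = 0.0219). The pi subunit gabrp rose at 25.1 µM (log2 fold change 1.11 ± 0.43 (SE), adjusted p = 0.0314). The vesicular carrier slc32a1 had 72.6, 105 and 176 CPM at 5 dpf and 71.3, 200.1 and 275 CPM at 4 dpf at 14 µM, with wide overlap (log2 fold change -0.70 ± 0.29 (SE), adjusted p = 0.0493). Neither slc6a1b, gad1b, glrba, glrbb, gabrb2, gabrr2a, gabrr2b, glra3 nor glra4a passed in any comparison. In all, 30 members passed in at least 1 of the 4 comparisons and none in both directions, 23 were positive in all 4 and 9 negative in all 4. These counts over the 4 comparisons were not made for all genes, so they mark no trait of the members.

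Several of these calls were lost when 1 library was left out, and the values are adjusted p without it. At 7.87 µM 16 of 26 calls held under every alternative. The gabbr1a call was lost without any 1 of 5 dpf libraries C and F and 4 dpf libraries A, H and I (adjusted p of 0.0563 to 0.0868). The gabra3 call was lost without 5 dpf library C (adjusted p = 0.0644). The gabra4 call was lost without either of 4 dpf libraries A and I (adjusted p of 0.0538 to 0.0572). The gabra6b call was lost without 5 dpf library F (adjusted p = 0.0873). The gad2 call was lost without any 1 of 5 dpf libraries C, F and G and 4 dpf libraries A, E, G and H (adjusted p of 0.0602 to 0.0826). The gphna call was lost without any 1 of 5 dpf libraries C, D, F and H and 4 dpf libraries E, G, H and I (adjusted p of 0.0539 to 0.17). The slc6a1a call was lost without any 1 of 5 dpf libraries C and F and 4 dpf libraries A, E, G and I (adjusted p of 0.0539 to 0.0816). The gabra2a and gabra5 calls did not pass with limma on the authors' quantile-normalized values, nor the glra4b call when only the compared groups entered the fit. The gphna call passed in 8 of 21 alternatives, and failed also without the filter on low counts and with only the compared groups. All 4 dpf libraries of 7.87 µM stand in 1 column block. With a term for that block 19 members were called, 15 higher and 4 lower, not all of them called in the main fit. The term ended the calls of gabbr1a, gabra2a, gabra3, gabra4, gabra6b, gad2 and slc6a1a, with log2 fold changes of 0.46 to 1.02, and of gphna (-0.54).

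At 14 µM 4 of 9 calls held under every alternative. The gabbr1b call was lost without 5 dpf library G (adjusted p = 0.0692). The glra1 call was lost without either of 5 dpf library G and 4 dpf library D (adjusted p of 0.0628 to 0.145). The glra4b call was lost without 4 dpf library A (adjusted p = 0.0526). The gphna call was lost without any 1 of 5 dpf libraries A and H and 4 dpf libraries C, H and I (adjusted p of 0.0566 to 0.168). The slc32a1 call was lost without any 1 of 5 dpf libraries A, D, E and H and 4 dpf libraries A, C, H and I (adjusted p of 0.0558 to 0.144). At 25.1 µM 6 of 10 held. The gabbr1b call was lost without any 1 of 5 dpf library I and 4 dpf libraries D and F (adjusted p of 0.0513 to 0.0682). The gabrp call was lost without any 1 of 5 dpf library G and 4 dpf libraries B, E and F (adjusted p of 0.0508 to 0.189). The glra4b call was lost without any 1 of 5 dpf libraries C, D, F, H and I and 4 dpf libraries B, C, D, E and H (adjusted p of 0.0554 to 0.105). The gphna calls at 14 and 25.1 µM did not pass with limma on the quantile-normalized values. The column block term also ended the calls of slc32a1 at 14 µM and glra4b at 25.1 µM. All 10 members called in DMSO, all 9 at 14 µM and all 10 at 25.1 µM kept the sign of the mean difference within both column blocks. The same libraries made the calls, so shared signs were likely beforehand and are no separate evidence. On the log2 scale slc6a5 in DMSO was 1.497 within the first 32 columns (5 libraries at 5 dpf, 2 at 4 dpf). Within the last 16 it was 1.24, with 1 library at 5 dpf and 4 at 4 dpf.

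Other genes of inhibitory transmission were listed to set beside the members. The counts are to be read against all genes tested, of which 21.7% rose and 20.2% fell in DMSO heads, 26.9% and 23.7% at 7.87 µM, 22% and 19% at 14 µM and 25.8% and 21.2% at 25.1 µM. In DMSO heads 16 of 28 transcription factors of inhibitory neurons fell with age and none rose (median log2 fold change -0.67), among them dlx2a (-1.72) and dlx1a (-1.43), which act in forebrain interneuron development. At 7.87, 14 and 25.1 µM 19, 18 and 16 fell and 0, 1 and 1 rose, with medians of -0.97, -0.89 and -0.71. Their summed level was 375.4 to 575.3 CPM in DMSO heads at 5 dpf and 772.7 to 1011 CPM at 4 dpf, with no overlap. The libraries mix all tissues of the head, so the fall of these factors cannot be placed in inhibitory neurons. Its part in the members' changes was not tested. The summed level of the 40 members was 966.5 to 1928 CPM at 5 dpf and 1012 to 1981 CPM at 4 dpf in the same libraries, overlapping over almost the whole range. That sum is made up mostly of slc6a1b, gad2, gad1b, slc6a9 and slc32a1, so it does not describe the subunits with few counts.

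Genes of GABA and glycine metabolism, with other carriers and chloride transporters, rose more often than they fell. In DMSO heads 9 of 21 rose and 1 fell (median 0.57); amt of the glycine cleavage system (1.78) and the glutamine carrier gene slc38a3b (1.64) rose most, and the glutamine synthetase gene glulb (-0.999) fell. At 7.87, 14 and 25.1 µM 14, 11 and 9 rose and 2, 1 and 1 fell. Many of these genes also act in liver, and liver markers moved with them: all 12 of 12 rose in DMSO heads (median 3.04), with sums of 4742 to 9863 CPM at 5 dpf and 268.2 to 2989 CPM at 4 dpf. Their part in the result was not tested. Among partners of the inhibitory synapse 4 of 21 rose and 3 fell in DMSO heads (median 0.08), with shisa7a at 1.02 and gabarapa, of the GABA-A receptor trafficking family, at -1.205. Of 15 interneuron peptides and calcium-binding proteins 4 rose and 6 fell, with the parvalbumin gene pvalb7 at 2.62 and the cholecystokinin gene cckb at -1.37.

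Pan-neuronal markers were split in the same comparison, with 4 of 18 higher and 4 lower in DMSO heads at 5 dpf (median 0.22), close to the 21.7% and 20.2% of all genes, syt1b at 1.47 and stmn2b at -1.89. At 7.87, 14 and 25.1 µM 6, 2 and 5 were higher and 3, 4 and 4 lower. Their summed level at 7.87 µM was 2269 to 4247 CPM at 5 dpf and 2666 to 6228 CPM at 4 dpf. Glial markers fell for 4 of 10 and rose for 1 in DMSO heads, with sums of 1438 to 2628 CPM at 5 dpf and 3068 to 5074 CPM at 4 dpf. Exocrine pancreas markers rose for 15 of 15, with sums of 891.4 to 4011 CPM at 5 dpf and 14.5 to 243.5 CPM at 4 dpf. The part of these lists in the members' changes was not tested.

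The second question was whether PFHxS changed these genes at a given age. No member passed the threshold in any of the 6 comparisons with DMSO of the same age, by edgeR's test or in any alternative, and 0% of all genes passed. At an unadjusted p under 0.05 there were 11 members at 7.87 µM at 4 dpf, 1 at 25.1 µM at 5 dpf and 0 in the other 4 comparisons. Over all genes 12%, 5.05% and 2.61% did so at 4 dpf (7.87, 14 and 25.1 µM), and 4.69%, 0.729% and 0.671% at 5 dpf. DESeq2 and limma on the quantile-normalized values likewise passed no member. The precision was limited: the median SE of a member's log2 difference was 0.30, and the 95% interval lay within 1 log2 unit of 0 for 30, 36 and 37 of 40 members at 7.87, 14 and 25.1 µM at 5 dpf and for 17, 31 and 31 at 4 dpf.

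At 4 dpf most members were below DMSO on average at each concentration. Positive log2 differences were found for 9 of 40 members at 7.87 µM, 11 at 14 µM and 7 at 25.1 µM, against 55.9%, 50.7% and 48.6% of all genes. The median of the members was -0.38, -0.15 and -0.16 in that order, and that of all genes 0.053, 0.0045 and -0.0088. With each library left out in turn the members' medians stayed negative, at -0.50 to -0.26, -0.25 to -0.040 and -0.25 to -0.053. The 3 comparisons share their DMSO libraries, and the mean of the members shifted by library within groups, so the signs are not separate observations. Of the 11 members with an unadjusted p under 0.05 at 7.87 µM, 10 were lower and 1 higher, against 4.39% and 7.59% of all genes.

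At 7.87 µM and 4 dpf the smallest p belonged to gabrb4, a beta subunit. It had 0.602, 1.73 and 3.47 CPM, against 2.18, 3.88 and 6.70 CPM in DMSO heads, overlapping in range (log2 difference -1.10 ± 0.41 (SE), unadjusted p = 0.0107, adjusted p = 0.272). The GABA-B subunit gabbr2 had 1.48, 1.80 and 3.88 CPM, against 2.80, 3.88 and 5.82 CPM in DMSO (log2 difference -0.93 ± 0.36 (SE), unadjusted p = 0.0141, adjusted p = 0.294). The alpha subunit gabra5 had 1.35, 1.89 and 2.85 CPM, against 2.15, 2.74 and 4.89 CPM in DMSO (log2 difference -0.62 ± 0.25 (SE), unadjusted p = 0.0154, adjusted p = 0.299). In all 3 the highest exposed library lay inside the DMSO range. Others among the 11 were gabrz (-1.13 ± 0.48), slc6a9 (-0.80 ± 0.35), gabbr1a (-0.72 ± 0.32), gabbr1b (-0.65 ± 0.30) and, the one that was higher, gabrr3a (0.61 ± 0.29). The count was 11 with all libraries, 6 without DMSO library H, 7 without DMSO library B or I or 7.87 µM library E or H, and 1 with a term for the column block, which put the median of the members at -0.23.

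The 7.87 µM libraries at 4 dpf and the DMSO libraries stood in different column blocks for the most part. Within the first 32 columns, 6 exposed against 2 DMSO libraries, the median difference of the members was -0.50, and the last 16 columns held no exposed library. At 14 µM and 4 dpf the median was -0.45 within the first 32 columns and 0.24 within the last 16, and at 25.1 µM -0.37 and 0.26, so that the lower medians did not hold within both blocks. Skeletal muscle markers, which the severed head includes, were higher in the same comparisons for 12, 14 and 14 of 14 genes at 7.87, 14 and 25.1 µM (medians 0.49, 0.56 and 0.61), none of them past the threshold. Their sums were 8596 to 20870, 9657 to 26920 and 10740 to 22570 CPM, against 7983 to 19310 CPM in DMSO heads at 4 dpf. Liver markers were higher for 10, 12 and 12 of 12 genes (medians 0.72, 1.34 and 1.11), with sums of 258.3 to 2478, 57.55 to 5266 and 797.2 to 3094 CPM, against 268.2 to 2989 CPM in DMSO. Exocrine pancreas markers were higher for 14, 13 and 15 of 15 (medians 0.74, 0.58 and 1.635), with sums of 6.88 to 335.9, 5.725 to 289.3 and 39.16 to 451 CPM, against 14.5 to 243.5 CPM in DMSO. No liver or pancreas marker passed the threshold. Pan-neuronal markers had medians of 0.00064, 0.10 and -0.13. The part of these lists in the members' values was not tested.

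At 14 µM and 4 dpf the smallest unadjusted p belonged to gabra5 (log2 difference -0.49 ± 0.25 (SE), unadjusted p = 0.0538, adjusted p = 0.971). The annotated span of gabra5 overlaps another gene, so its counts are not certain to be separate. At 25.1 µM the smallest belonged to gabrr3a (log2 difference 0.50 ± 0.29 (SE), unadjusted p = 0.0949, adjusted p = 1), glra1 (log2 difference -0.40 ± 0.29 (SE), unadjusted p = 0.171, adjusted p = 1) and gabrr2a (log2 difference -0.34 ± 0.25 (SE), unadjusted p = 0.183, adjusted p = 1). For the carrier slc6a5 the differences from DMSO at 4 dpf were -0.39 ± 0.26, 0.03 ± 0.26 and 0.10 ± 0.26 at 7.87, 14 and 25.1 µM, and for the vesicular carrier slc32a1 0.17 ± 0.29, 0.19 ± 0.29 and -0.12 ± 0.29, with SE. For gad1b they were -0.16 ± 0.25, 0.01 ± 0.25 and -0.13 ± 0.25, for gad2 -0.35 ± 0.31, -0.01 ± 0.31 and -0.13 ± 0.31, and for gad1a 0.08 ± 0.53, -0.03 ± 0.54 and 0.57 ± 0.52.

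At 5 dpf the members lay close to DMSO. The median log2 difference of the 40 was 0.13, -0.11 and -0.13 for 7.87, 14 and 25.1 µM, and 30, 7 and 6 of 40 members were positive, against 51.8%, 53.7% and 52.2% of all genes. With each library left out the medians were 0.050 to 0.24, -0.29 to -0.027 and -0.28 to -0.059. The one member with an unadjusted p under 0.05 was glra4a at 25.1 µM, a glycine receptor alpha subunit. It had 1.70, 2.59 and 4.56 CPM, against 2.27, 3.99 and 4.78 CPM in DMSO heads, so the ranges overlapped (log2 difference -0.49 ± 0.24 (SE), unadjusted p = 0.0463, adjusted p = 1). The smallest p at 14 µM belonged to gabra5 (log2 difference -0.29 ± 0.24 (SE), unadjusted p = 0.231, adjusted p = 1), gabrr2b (log2 difference -0.76 ± 0.76 (SE), unadjusted p = 0.323, adjusted p = 1) and gabrb1 (log2 difference -0.36 ± 0.39 (SE), unadjusted p = 0.355, adjusted p = 1). At 7.87 µM it was gabrr3a (log2 difference -0.45 ± 0.30 (SE), unadjusted p = 0.137, adjusted p = 0.986), gabra3 (log2 difference 0.70 ± 0.47 (SE), unadjusted p = 0.144, adjusted p = 0.986) and glra1 (log2 difference 0.38 ± 0.28 (SE), unadjusted p = 0.185, adjusted p = 0.986). The next at 25.1 µM were gabrr1 (log2 difference -0.23 ± 0.17 (SE), unadjusted p = 0.18, adjusted p = 1) and gphna (log2 difference -0.29 ± 0.23 (SE), unadjusted p = 0.225, adjusted p = 1).

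The intervals bound the differences at 5 dpf. At 25.1 µM the 95% interval of the log2 difference was -0.12 to 0.46 for gabra6a, -0.57 to 0.10 for gabrr1, -0.76 to 0.24 for gad1b, -0.78 to 0.23 for slc6a5 and -0.67 to 0.35 for gphnb. It was -0.62 to 0.57 for gad2, -0.75 to 0.38 for slc32a1, -0.79 to 0.31 for slc6a1b and -0.66 to 0.45 for glra1. Within column blocks the medians of the members at 5 dpf were 0.019 and 0.32 at 7.87 µM, -0.33 and 0.21 at 14 µM and -0.28 and 0.16 at 25.1 µM, for the first 32 and the last 16 columns, and the last 16 held 1 DMSO library. Muscle markers had a median of -0.48 at 7.87 µM, with 4 of 14 positive and sums of 7522 to 12900 CPM, against 9410 to 15400 CPM in DMSO. Liver markers had medians of -0.66, -0.31 and -0.48 at 7.87, 14 and 25.1 µM, and exocrine pancreas markers -0.89, -0.14 and -0.91. The part of these lists was not tested.

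**Figure D3:**
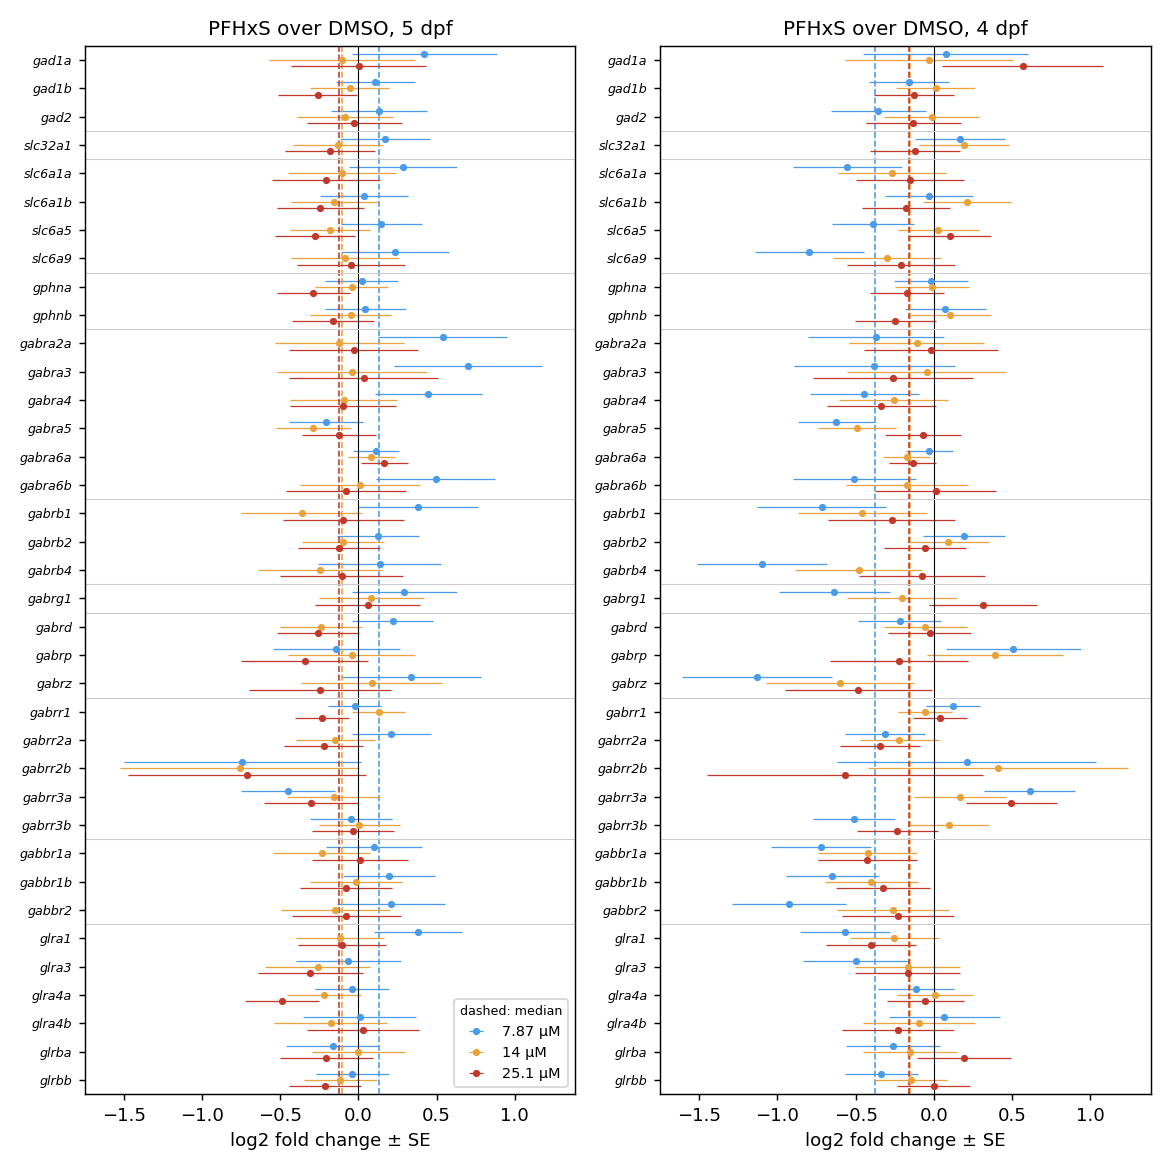
Log2 difference of each member reported by name between PFHxS and DMSO of the same age, with SE bars, at 7.87, 14 and 25.1 µM, 5 dpf on the left and 4 dpf on the right. The dashed lines are the medians over the 40 members, which lie below 0 in all panels but 7.87 µM at 5 dpf, and no point passed the adjusted threshold.

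A slope over concentration was fitted within each age, on 24 libraries. At 5 dpf 39 of 40 members had a negative slope, against 50.3% of all genes, with a median of -0.0093 log2 units per µM, against -5.4e-05 for all genes. The mean of the members shifted by library within groups, so their signs, here and in the other comparisons, are not separate observations. The median differences from DMSO at 7.87, 14 and 25.1 µM were 0.13, -0.11 and -0.13. Within the last 16 columns, with 1 DMSO library, those at 14 and 25.1 µM were 0.21 and 0.16. With concentration as log2(µM + 1), 0 members had an unadjusted p under 0.05. No member passed the adjusted threshold, against 0.0049% of all genes. The slope of glra4a had the smallest p (-0.0204 ± 0.0095 per µM, SE, unadjusted p = 0.0405, adjusted p = 1), followed by gabrd (-0.0151 per µM) and gphna (-0.0124 per µM). Pan-neuronal markers moved the same way, with 14 of 18 slopes negative and a median of -0.00889 per µM (sums of 2449 to 4289 CPM at 25.1 µM and 2419 to 3917 CPM in DMSO). Exocrine pancreas markers had 15 of 15 negative slopes at 5 dpf and liver markers 9 of 12, whereas at 4 dpf all 14 pancreas, 12 liver and 14 muscle markers that were tested had positive ones. The part of these lists was not tested. With single libraries left out the median at 5 dpf was -0.0163 to -0.0062 per µM, the extremes without 25.1 µM libraries G and C. At 4 dpf, where 39 members passed the filter, 27 slopes were negative, against 54% of all genes, with a median of -0.0027 per µM, which was positive (0.0015 at most) without any 1 of 25.1 µM libraries D and F and DMSO libraries B, H and I. The smallest unadjusted p at 4 dpf was 0.242, for gabrr2a. The number of members at an unadjusted p under 0.05 at 5 dpf, 1 with all libraries, was 0 without any 1 of 25.1 µM libraries D, F, H and I and DMSO libraries F, H and I, 3 without DMSO library C and 6 without 25.1 µM library G.

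The last comparison asked whether the difference from DMSO changed between 5 and 4 dpf. No member passed at any concentration, nor did any other gene (0%). At 7.87 µM the log2 difference from DMSO was higher at 5 dpf than at 4 dpf for 33 of 40 members. The median of this change was 0.47 log2 units, against -0.07 for all genes. At an unadjusted p under 0.05 there were 8 members, 7 higher and 1 lower, against 3.39% and 3.17% of all genes. Among the smallest p were those of gabrr3a (-1.07 ± 0.42 SE, unadjusted p = 0.0138) and glra1 (0.95 ± 0.40, unadjusted p = 0.0229). The count of 8 ran from 3 to 14 as single libraries were left out: 3 without DMSO 4 dpf library H, 4 without 7.87 µM 5 dpf library C or DMSO 4 dpf library I, 5 without 7.87 µM 5 dpf libraries F or G, 7.87 µM 4 dpf library A, DMSO 5 dpf library C or DMSO 4 dpf library B, 13 without 7.87 µM 5 dpf library I and 14 without 7.87 µM 4 dpf library B. With a term for the column block it was 1. At 14 µM the median was 0.05 with 22 of 40 positive, against a median of 0.015 for all genes. At 25.1 µM it was -0.04 with 18 positive, against 0.014 for all genes. No member had an unadjusted p under 0.05 at either concentration. The sign of both medians of the members depended on which library was left out, from -0.13 to 0.17 at 14 µM and from -0.17 to 0.092 at 25.1 µM.

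Within groups the mean level of the members differed from library to library. The mean log2 CPM of the 40 members lay between 2.94 and 3.77 in DMSO libraries at 5 dpf, and between 2.69 and 3.70 at 4 dpf. At 7.87 µM the ranges were 3.06 to 3.91 for 5 dpf and 2.39 to 3.52 for 4 dpf. At 14 µM it was 2.94 to 3.95 and 2.37 to 3.50, and at 25.1 µM 2.85 to 3.83 and 2.70 to 3.54, for 5 and 4 dpf. These ranges within a group exceeded the differences between the group means, which lay between 2.88 (7.87 µM at 4 dpf) and 3.53 (7.87 µM at 5 dpf). In 8 of 8 groups the library with the lowest mean of the members also had a lower pan-neuronal mean and a higher muscle mean than the library with the highest. The other lists were mixed. Glial and retina means were each lower in 6 groups and higher in 2, liver means lower in 2 and higher in 6. Exocrine pancreas means were lower in 4 and higher in 4. The part of these lists in the spread was not tested. The median coefficient of variation over the members was 25.3% in DMSO heads at 5 dpf and 46.6% at 14 µM at 4 dpf, the smallest and largest of the 8 groups. By gene it ran from 15.7% for gabra6a to 81.2% for gabrr2b, the gene with the fewest counts.

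**Figure D4:**
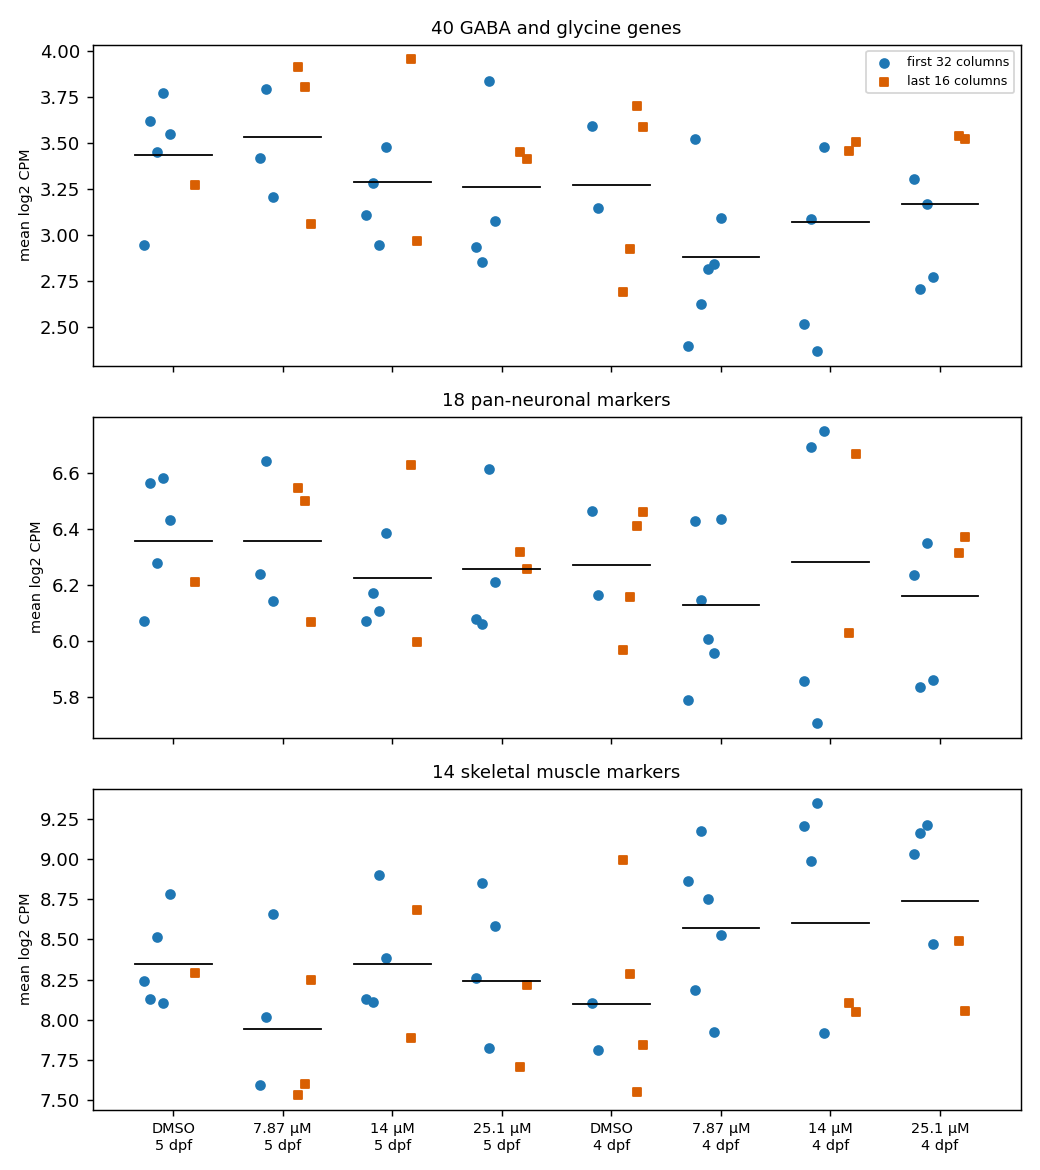
Mean log2 CPM (prior count of 2) per library over the 40 members, 18 pan-neuronal markers and 14 muscle markers, by group, with 5 dpf groups left of 4 dpf groups, blue for the first 32 columns of the count table and orange for the last 16. The members' points spread widely within every group, for example from 2.37 to 3.50 at 14 µM and 4 dpf.

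Several receptor genes lie side by side in the genome, as GABA-A subunit genes do in other vertebrates. On chromosome 13 gabra2a, gabrg1 and gabrb1 follow each other on 1 strand with gaps of 23.6 and 97.3 kb. All 3 were called higher at 5 dpf at 7.87 µM, at log2 fold changes of 1.22, 1.45 and 1.48. So were 21 of all 40 members and 26.9% of all genes, so the calls mark no trait of neighbouring genes. The gabra2a call was lost with the column block term and with limma on the quantile-normalized values. In DMSO none of the 3 was called. The pair gabra6a and gabrb2 on chromosome 14, 3.26 kb apart, had log2 fold changes in DMSO of -0.47 ± 0.15 and 0.15 ± 0.26 (SE), and gabrr1 and gabrr2b on chromosome 20, 7.13 kb apart, were at -0.48 ± 0.17 and 0.68 ± 0.79. The difference within a pair was not tested. In all, 11 members overlap another annotated gene, among them slc6a1a, slc6a1b, slc6a9, glrbb, gabrz and gabrr2a besides those named above. Their counts carry some doubt, but not to the same degree. The gene that gabrr2a overlaps had a mean count of 0.45, and slc6a9 overlaps its neighbour by 0.389 kb. By contrast, gabrr3a overlaps a gene on the same strand with a mean count of 342.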

How the data were processed

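Polyadenylated RNA from 48 pools of zebrafish heads was sequenced. The authors' deposited table of expected counts (estimated reads per gene, not normalized) has 25445 genes, and within 1e-09 a whole number stood in 77.5% of cells. In their other deposited table, quantile-normalized log2 values are given for 19844 genes, 39 members among them. Per the submitters' processing notes, the tools were Partek 8.0.19.0428 and STAR 2.5.3a, on GRCz11. What each tool did, which annotation was used and how strand and shared reads were counted are not given in the sources used here. Coordinates are those of the deposited table. Ensembl identifiers were matched for 11 of 40 members, and no genome or sequence was used here.

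The estimates were rounded to integers before testing. Groups were taken from the concentration and age labels. Genes were kept by filterByExpr, and all 48 libraries entered 1 model of 8 group means in edgeR 4.0.16 (R 4.3.3) with TMM scaling and the quasi-likelihood F test. TMM factors were 1.1 to 1.925 at 5 dpf and 0.566 to 1.098 at 4 dpf. Slopes used the 24 libraries of an age, with 18353 genes at 4 dpf and 20406 at 5 dpf. Adjusted p-values follow Benjamini and Hochberg over all genes tested, with a threshold of 0.05, and the SE is the log2 fold change divided by the square root of F. Fold changes carry edgeR's prior count of 0.125, log2 CPM a prior count of 2. Lists are described by counts and medians and were not tested as sets. The test was also run on simulated counts, drawn independently for each library with no effect of sequencing pool or replicate letter. That run therefore says nothing about such effects in these data. No 2 libraries agreed within sampling noise (smallest chi-square per gene 13.2 over 1128 pairs).

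Alternatives were DESeq2 1.42.0, limma 3.58.1 on the quantile-normalized values (pseudocount 0.1 or 1), relative log expression scaling, no filter on low counts or one of 1 CPM, fits on the compared groups only, a term for the column block, the replicate letter as a block, and each library left out. The last 16 columns of the count table carry each index number once, so they were taken as 1 sequencing pool, which is inferred and not labelled. The members, lists and tests were chosen with earlier results of these data known. Named throughout were every called member or, failing that, the 3 with the smallest p, and 17 genes of synthesis, transport, scaffold and main receptor subunits whatever their values; from other lists at most 4 genes with the largest changes were named. Results of single genes are not reported here for some members, which are kept in counts and medians over the members.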

Additional observations from a re-analysis of the deposited data

Results flagged for a closer look

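On the log2 scale, 24 of 304 sets of 6 libraries had 1 library that stood apart. Each set was a reported member or the members' mean in 1 group. The gap of that library to its nearest neighbour was a larger part of the group's range than Dixon's critical value at the 95% level allows. About 1 in 20 such sets holds such a gap by chance, which is 15.2 of 304. Most of them belonged to 3 libraries at 5 dpf. A small constant was added to CPM before the log, and the place of an uncounted gene (gabrr2b below) depends on it. The count of 24 holds for the log2 scale and not for linear CPM. The values printed below are TMM-scaled CPM on the linear scale, and no explanation was tested.

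At 5 dpf, library H of 7.87 µM was the lowest for 6 genes: gad1b (116.5), slc6a1b (166.0), gabrb2 (14.67), gphnb (11.52), gabrr1 (12.41) and gabrr2a (9.289). Library G of 14 µM at 5 dpf was the highest for 5 genes, namely slc6a5 (69.04), slc6a1a (122.3), gabbr1b (32.53), gabra4 (9.403) and gabrg1 (5.91). In that group library H was the lowest for gphnb (11.44). Library G of 25.1 µM at 5 dpf was the highest for gad2 (364.7), slc32a1 (181.8), glrbb (50.34) and gabrr3b (4.033). In DMSO at 5 dpf library C was the lowest for glra1 (13.43) and gabrb4 (3.113), and library F for gabrr2b (0.0, which allows up to 0.118 CPM).

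At 4 dpf the libraries that stood apart differed by gene. In the 7.87 µM group library B was the highest for gabbr2 (3.878), library H the highest for gabra4 (8.959) and library A the lowest for gabra6b (1.17). In the 14 µM group library B was the lowest for gabra4 (0.7917), and in the 25.1 µM group library H was the highest for gabrr2a (18.11).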

How the results depend on the processing

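Between ages, the number of called members was 10 in DMSO, 26 at 7.87 µM, 9 at 14 µM and 10 at 25.1 µM. With limma on the quantile-normalized values (either pseudocount) it was 6 in DMSO, 24, 8 and 10, with 39 members in that table. DESeq2 gave 11, 27, 10 and 10, and the other settings 9 to 13 in DMSO, 19 to 27, 7 to 10 and 9 to 10. Leaving out 1 library gave 7 to 9, 21 to 29, 7 to 12 and 8 to 9. With a term for the column block the split was 6 higher and 7 lower in DMSO, 15 and 4 at 7.87 µM (19 in all), and 4 and 5 at 14 µM. No called member changed sign, and no member passed in a comparison with DMSO, a slope or an interaction, under any alternative run. Of 1155 values of single called members under alternatives, 135 had an adjusted p above the threshold. What the replicate letters mark is not stated. Same-letter correlations averaged 0.30 at 4 dpf (-0.108 to 0.57, 23 pairs), against -0.0355 for different letters. At 5 dpf they averaged 0.163, against -0.024, and between ages -0.0977, against 0.0125. Within an age, libraries of the same letter were thus more alike on average, and the main model had no term for the letter. With the letter as a replicate block the called members numbered 12 in DMSO, 26, 10 (5 higher, 5 lower) and 10, and that does not say how strong an effect is. Under that block the members' median at 25.1 µM and 4 dpf was -0.024, in place of -0.16, and the median slope at 4 dpf was positive, at 0.00011 per µM. By mean CPM gabrr2b, gad1a and gabra3 were the least counted members, and the median SE of 0.30 leaves small differences from DMSO undetectable here.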

Other observations

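Other genes of inhibitory transmission were compared between PFHxS and DMSO as well, and none passed the threshold. At 7.87 µM and 4 dpf 13 of 15 interneuron peptides and calcium-binding proteins were positive (median 0.41, 5 with an unadjusted p under 0.05). Of the partners of the inhibitory synapse 7 of 21 were positive (median -0.08, 4 with an unadjusted p under 0.05). Over all genes 55.9% were positive and 12% had an unadjusted p under 0.05. At 14 µM and 4 dpf 13 of 15 peptide and calcium-binding genes were positive again (median 0.25), against 50.7% of all genes. At 25.1 µM it was 10 of 15 (median 0.024), against 48.6%. The comparisons share the DMSO libraries. At 5 dpf the transcription factors of inhibitory neurons were positive for 8, 7 and 5 of 28 at 7.87, 14 and 25.1 µM, with medians of -0.14, -0.11 and -0.16. Over all genes 51.8%, 53.7% and 52.2% were positive in that order.

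Over concentration at 5 dpf, 18 of 21 synapse partner genes had a negative slope (median -0.0083 per µM), as had 39 of 40 members and 14 of 18 pan-neuronal markers, while 5 of 14 retina markers were negative (median 0.0022 per µM). Over all genes 50.3% of slopes were negative. These lists were measured in the same 24 libraries and are not separate observations.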
